A study of Mus musculus with 20 samples.

Results

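This report describes 9 genes whose RNA was more abundant in the abdominal aorta of Plod1-/- than of wild-type (WT) mice under saline, namely *Serinc2*, *Nfasc*, *Sphkap*, *Prune2*, *Cacna1h*, *Gpm6a*, *Slc22a3*, *Kcnj12* and *Gprc5c*, out of 43422 genes listed for each mouse. They were chosen by that saline difference, so the saline values are given as a description, and the question was what happens to the difference under angiotensin II (Ang II). RNA was sequenced from the whole abdominal aorta of 20 mice of C57BL/6 background (C57Bl/6NCrl in the methods of the study), 5 in each of 4 groups, on day 14 of infusion by subcutaneous osmotic pump, at an age of 6 months according to the sample labels, whereas the methods of the study give a younger age at the implantation of the pumps. The groups were saline-treated WT, saline-treated Plod1-/-, Ang II-treated WT and Ang II-treated Plod1-/- mice, and Ang II was given at 1000 ng/kg per minute. Plod1-/- mice lack lysyl hydroxylase 1 (LH1), the enzyme that hydroxylates lysines of fibrillar collagen before crosslinking, in every tissue, and the methods of the study describe the mice as male littermates. Values are FPKM, a fragment count scaled to transcript length and to the mapped reads of the library, and a difference is on the log2(FPKM + 1) scale unless it is called a ratio of mean FPKM.

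All of the 9 genes but *Prune2* encode proteins of the cell membrane or a protein that anchors signalling inside the cell. *Cacna1h* encodes the pore of a T-type calcium channel, which opens near the resting potential, and *Kcnj12* an inward-rectifier potassium channel, which holds that potential down. Channels of both kinds set the tone of vascular smooth muscle. *Slc22a3* encodes an organic cation transporter that clears monoamines outside of nerve endings. *Nfasc* encodes neurofascin, an adhesion molecule known from the node of Ranvier, and *Gpm6a* a membrane glycoprotein of the proteolipid family known from neurons. *Serinc2* belongs to the serine incorporators and *Gprc5c* to the orphan receptors induced by retinoic acid. *Sphkap* encodes an anchor of protein kinase A, and *Prune2* a large protein with a BCH domain.

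*Plod1* was checked first in every mouse. The 10 WT mice had 22.8 to 29.7 FPKM, and the highest of the 10 Plod1-/- mice had 0.0415 FPKM. FPKM summed to between 344207 and 437790 per mouse, and mitochondrial genes took 8.37% to 29.1% of the sum, with the highest median, 24.5%, in Ang II-treated WT mice. The depth is unknown, since the files hold FPKM and no counts, and no detection limit is given. *Xist*, the RNA of the inactive X chromosome of female cells, reached 15.1 FPKM in replicate 5 of the saline-treated and 7.93 FPKM in replicate 1 of the Ang II-treated Plod1-/- mice, and 0.0328 FPKM at most in the other mice. Results are therefore also given without these libraries where that changes them. Smooth muscle markers (12 genes, among them *Acta2* and *Myh11*) were all present and summed to between 14689 and 21079 FPKM in saline-treated WT mice, and the 8 adrenal cortex and 6 kidney markers summed to no more than 3.31 and 4.21 FPKM in any mouse. The samples are whole tissue, in which fewer cells of a type and less RNA per cell cannot be told apart.

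Of the 9 genes, *Serinc2* (ENSMUSG00000023232) shares the chromosome of *Plod1*, and the others lie elsewhere. It is on chromosome 4 of GRCm38 from 130253495 to 130279205, 17.7 Mb from *Plod1*. All positions below are of that build. Most span long stretches of the genome. The median span was 88.7 kb, against 19.6 kb over 11987 genes tested under saline, and it ran from 21.5 kb for *Gprc5c* to 268 kb for *Prune2*. Genes that overlap them in the annotation reached at most 0.533 FPKM, for *Tpsg1*, which lies on the strand opposite to *Cacna1h*.

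RefSeq start sites (GRCm38.p6) were found for 7 of the 9 genes, in 11 windows. The 250 bases before the start site are shown for *Sphkap*, whose genotypes stood in the opposite order under Ang II, for *Prune2*, whose estimate stayed above 0, and for *Serinc2*, whose saline ratio was the largest of the 9. The sequences are written 5′ to 3′ on the strand of the gene, and the capitals mark matches to searched motifs. *Sphkap* is at chr1:83408201-83408450 (minus strand), *Prune2* at chr19:16955868-16956117 (plus strand) and 1 of the *Serinc2* starts at chr4:130275587-130275836 (minus strand).
Sphkap: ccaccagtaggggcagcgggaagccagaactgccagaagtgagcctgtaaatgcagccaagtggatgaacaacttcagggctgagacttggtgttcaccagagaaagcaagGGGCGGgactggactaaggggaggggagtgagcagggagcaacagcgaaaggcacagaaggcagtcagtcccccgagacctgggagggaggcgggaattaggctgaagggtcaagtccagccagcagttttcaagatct
Prune2: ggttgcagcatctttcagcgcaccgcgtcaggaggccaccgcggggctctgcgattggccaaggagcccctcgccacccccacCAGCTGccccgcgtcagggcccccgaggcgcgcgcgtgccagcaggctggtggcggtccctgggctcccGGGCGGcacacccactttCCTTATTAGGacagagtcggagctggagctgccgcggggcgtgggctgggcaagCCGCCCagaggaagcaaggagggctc
Serinc2: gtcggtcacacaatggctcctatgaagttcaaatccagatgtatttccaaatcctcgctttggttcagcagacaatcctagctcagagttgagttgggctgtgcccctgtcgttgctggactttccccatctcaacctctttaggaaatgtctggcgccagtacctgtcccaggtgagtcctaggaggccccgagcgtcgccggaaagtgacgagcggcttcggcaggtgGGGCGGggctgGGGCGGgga
The motifs, searched on both strands over 300 bases around each start, were the GC box (GGGCGG), the E-box (CAGCTG or CACGTG), the TATA box (TATAAA), the AP-1 site (TGANTCA), the cAMP response element and the CArG box, which binds serum response factor. A GC box was found in 5 of the 11 windows, against 35.7% of 32851 windows of all genes. A CArG box was found in 1 window, that of *Prune2*, 80 bases before the start, against 1.63% of all windows. AP-1 sites (7.81% of all windows) and cAMP response elements (1.79%) were found in 0 of the 11 windows. An E-box was in 3 of the 11 windows (22.2% of all) and a TATA box in 1 (13.6%).

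Under saline, the values of the 2 genotypes did not overlap for any of the 9 genes, which is what they were chosen for. The difference in log2(FPKM + 1) ran from 0.84 for *Gpm6a* to 1.97 for *Serinc2*, with a median of 1.10. Among 11999 genes tested in these mice, 4.22% had every Plod1-/- mouse above every WT mouse, and 0.358% (43 genes) were higher with an adjusted p below 0.05 and a difference above 1. By those thresholds, 6 of the 9 genes were among the 43. *Gprc5c*, at 1.07, was the member nearest to the limit from above and *Cacna1h*, at 0.91, the nearest from below, followed by *Kcnj12* at 0.88 and *Gpm6a* at 0.84. Most levels were low, and the mean FPKM in saline-treated WT mice was below 1 in all but *Slc22a3*.

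**Figure D1:**
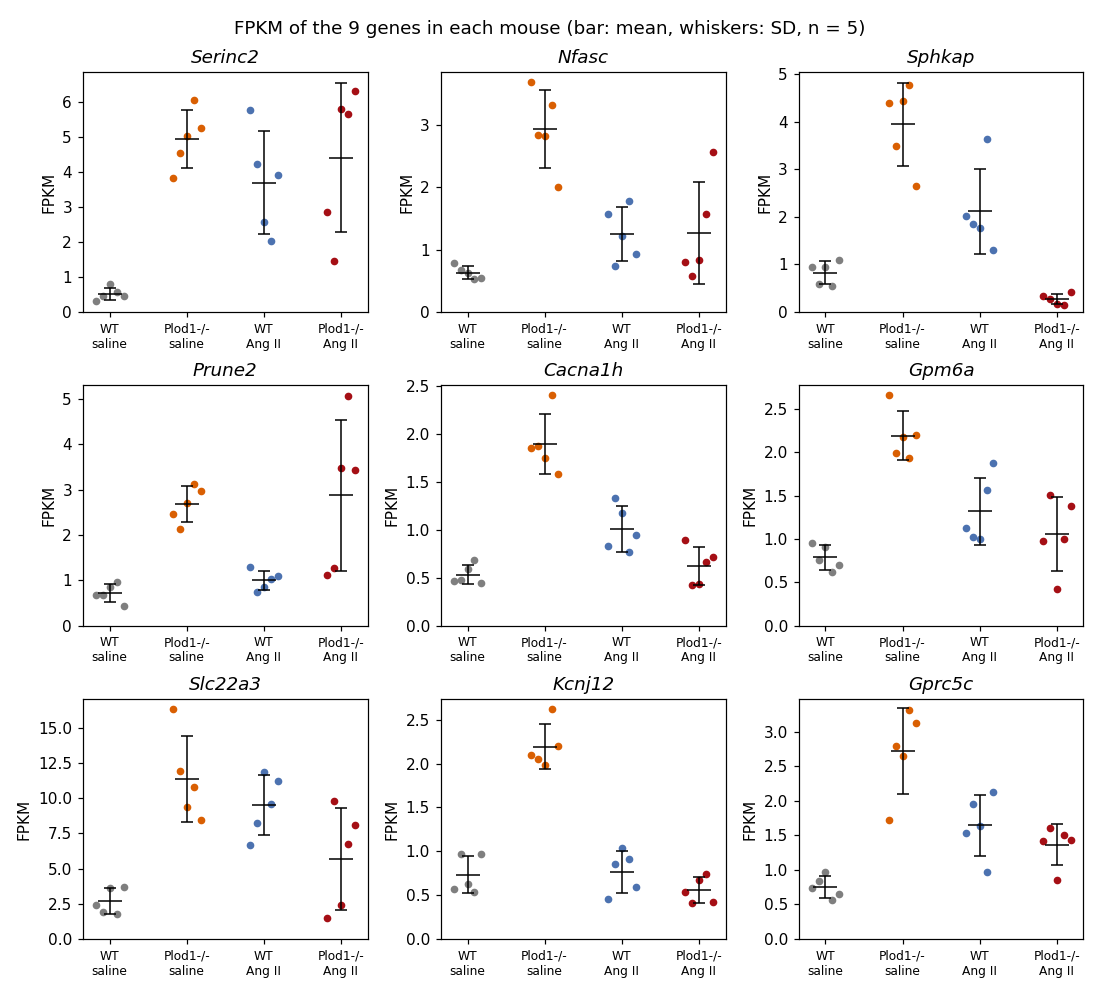
FPKM of each gene (vertical axes, each from 0) in the 20 mice by group, with points for mice, bars for means and whiskers for SD (n = 5). Saline-treated Plod1-/- mice are above saline-treated WT mice in every panel, and under Ang II the genotypes overlap in every panel except that of *Sphkap*, where the Plod1-/- mice are at 0.157 to 0.421 FPKM and the WT mice at 1.31 to 3.64 FPKM.

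Under Ang II, the contrast that shares no mouse with the one used to choose the genes, the saline pattern did not recur in most of them. The estimates for 7 of the 9 genes were below 0 and the median was -0.18, whereas the median over 12356 genes tested was 0.12 and 40.0% of those genes were below 0. *Sphkap* was called lower in Plod1-/- mice, and 0 of the 9 were called higher. Among all genes tested, 3.67% were called lower and 7.45% higher in Plod1-/- mice. At an unadjusted limma p below 0.05 the count of higher genes was 1, *Prune2* (28.3% of all genes tested), among the 7 genes that passed the filter on low values, which asked for 1 FPKM or more in 5 or more of the 10 mice. *Cacna1h* and *Kcnj12* were below that filter, and their estimates come from the fit without it. The quantile-normalized fit moved the median of all genes from 0.12 to -0.03.

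**Figure D2:**
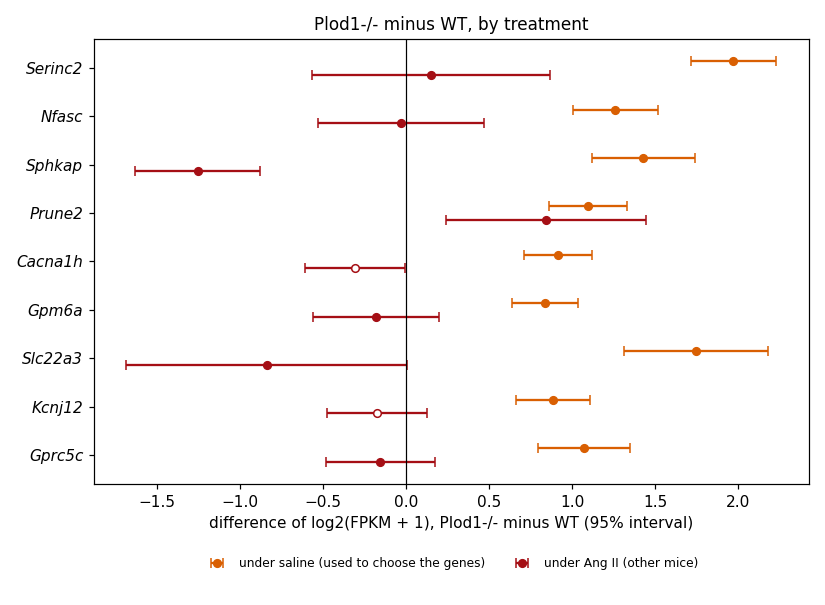
Difference in log2(FPKM + 1) between Plod1-/- and WT mice (horizontal axis) for each gene under saline, the values that chose the genes, and under Ang II, with 95% intervals from limma (n = 5 against 5) and open points for genes below the filter. The saline estimates run from 0.84 to 1.97, and under Ang II the intervals of *Sphkap* and *Cacna1h* lie below 0 and that of *Prune2* above 0.

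*Sphkap* (ENSMUSG00000026163, chromosome 1, 83254139 to 83408200), the anchor of protein kinase A, stood in opposite order in the genotypes under the 2 treatments. Its FPKM was 0.955, 0.589, 0.948, 0.558 and 1.09 in saline-treated WT mice and 4.40, 3.48, 4.44, 4.76 and 2.65 in saline-treated Plod1-/- mice. It was 2.02, 1.86, 1.77, 3.64 and 1.31 in Ang II-treated WT mice and 0.344, 0.269, 0.173, 0.157 and 0.421 in Ang II-treated Plod1-/- mice. The genotypes did not overlap under either treatment, with Plod1-/- mice on top under saline and at the bottom under Ang II, where 4.62% of all genes tested had every Plod1-/- mouse below every WT mouse. With Ang II the mean FPKM was 7.77-fold lower in Plod1-/- mice, a log2 difference of -1.26 (SE 0.17, limma adjusted p = 0.00152). The genotypes were fully separated under Ang II (exact permutation test, two-sided, p = 0.00794, the smallest that 5 mice against 5 allow). *Sphkap* passed the filter on low values only through the 5 WT mice, in which it was above 1 FPKM, so that the filter favoured a difference in this direction. With no filter the limma adjusted p was 0.00686. The call held in every alternative that was run, with differences between -2.55 and -1.10 and adjusted p-values up to 0.0138. Of 13 tested genes for A-kinase anchors, protein kinase A subunits and sphingosine kinases, 0 were called under saline and 2 under Ang II. Of all genes tested under Ang II, 11.1% were called, so a count of 2 is near that share. *Akap1*, an anchor at mitochondria, was lower in Plod1-/- mice by -1.42 (SE 0.32, limma adjusted p = 0.00967), and *Sphk1*, a sphingosine kinase, was higher by 1.41 (SE 0.39, limma adjusted p = 0.0207).

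*Prune2* (ENSMUSG00000039126, chromosome 19, 16956118 to 17223932) was the member whose Ang II estimate stayed nearest to its saline estimate. Its FPKM was 0.678, 0.676, 0.851, 0.963 and 0.442 in saline-treated WT and 2.45, 2.14, 2.70, 3.12 and 2.97 in saline-treated Plod1-/- mice. Under Ang II it was 1.28, 0.746, 0.853, 1.03 and 1.10 in WT mice and 1.12, 1.27, 3.48, 5.07 and 3.42 in Plod1-/- mice. Replicates 3, 4 and 5 of the Ang II-treated Plod1-/- mice were above every Ang II-treated WT mouse, and replicates 1 and 2 were within the WT range. The difference under Ang II was 0.84 (SE 0.27, limma adjusted p = 0.0388), 2.87-fold in mean FPKM, and it missed a call because the size did not exceed 1. The exact permutation test gave p = 0.0238 (two-sided, 5 mice against 5). It was called when the libraries with *Xist* RNA were left out (1.03, limma adjusted p = 0.0100) and when replicate 2 of the Plod1-/- mice was left out (1.00, limma adjusted p = 0.0193), and its adjusted p was 0.106 with no filter on low values. The 12 markers of neurons and sympathetic nerves, among them *Th* and *Dbh*, summed to 136, 41.0, 602, 1247 and 473 FPKM in these 5 Plod1-/- mice in the same order, and to between 52.6 and 87.7 FPKM in Ang II-treated WT mice. The part of this in the *Prune2* values was not tested. The 3 tested relatives of *Prune2* with a BCH or Prune domain were called in 0 cases under either treatment, and *Bnip2* and *Arhgap1*, the most abundant, had differences of -0.32 and 0.27 under Ang II.

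*Serinc2*, the serine incorporator, had the largest saline ratio, 9.62-fold in mean FPKM. Its FPKM was 0.313, 0.446, 0.795, 0.561 and 0.456 in saline-treated WT and 3.84, 4.56, 5.02, 6.06 and 5.26 in saline-treated Plod1-/- mice. Under Ang II it was 5.76, 4.22, 2.57, 2.04 and 3.91 in WT mice and 2.85, 1.46, 5.80, 5.67 and 6.32 in Plod1-/- mice. Every Ang II-treated mouse of either genotype was above every saline-treated WT mouse, and the Ang II-treated genotypes overlapped. The difference under Ang II was 0.15 (SE 0.32, limma adjusted p = 0.752), with a 95% interval from -0.57 to 0.86. In Plod1-/- mice the 3 replicates with the highest *Serinc2* were those with the highest *Prune2*. The relatives *Serinc1* and *Serinc3* were at 45.5 and 153 FPKM on average in Ang II-treated WT mice, and 0 of 3 tested serine incorporators were called under either treatment.

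*Slc22a3* (ENSMUSG00000023828, chromosome 17, 12418960 to 12507704), the organic cation transporter, was the most abundant of the 9 genes. Its FPKM was 2.44, 1.89, 3.62, 1.81 and 3.72 in saline-treated WT and 16.3, 11.9, 9.37, 10.8 and 8.42 in saline-treated Plod1-/- mice. With Ang II it was 6.69, 8.26, 11.8, 9.60 and 11.2 in WT mice and 1.46, 9.80, 2.44, 6.73 and 8.08 in Plod1-/- mice. Ang II-treated WT mice reached the range of saline-treated Plod1-/- mice, and Ang II-treated Plod1-/- mice spread over 6.71-fold. The difference under Ang II was -0.84 (SE 0.38, limma adjusted p = 0.117), with a 95% interval from -1.69 to 0.01. *Slc22a2*, another organic cation transporter, was at 4.89 ± 2.05 FPKM in Ang II-treated WT and 0.988 ± 0.372 FPKM in Plod1-/- mice under Ang II (SD, n = 5), a difference of -1.51 (SE 0.24, limma adjusted p = 0.00254).

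The ion channel genes were near or below 1 FPKM under Ang II, with estimates below 0. *Cacna1h* (ENSMUSG00000024112, chromosome 17, 25374285 to 25433783) ran from 0.446 to 0.682 FPKM in saline-treated WT and from 1.58 to 2.41 FPKM in saline-treated Plod1-/- mice. Under Ang II it was 0.834, 1.33, 1.18, 0.764 and 0.945 in WT and 0.890, 0.423, 0.432, 0.666 and 0.716 FPKM in Plod1-/- mice. All Ang II-treated Plod1-/- mice but replicate 1 were below the lowest Ang II-treated WT mouse. The difference was -0.31 (95% interval from -0.61 to -0.01, exact permutation test, p = 0.0317, adjusted p = 0.220 with limma and no filter). *Kcnj12* (ENSMUSG00000042529, chromosome 11, 61022564 to 61071131) ran from 0.541 to 0.969 FPKM in saline-treated WT and from 1.98 to 2.63 FPKM in saline-treated Plod1-/- mice, the group that stood apart. The WT mice ran from 0.455 to 1.03 FPKM and the Plod1-/- mice from 0.415 to 0.744 FPKM under Ang II (difference -0.18, exact permutation test, p = 0.135). Other subunits of voltage-gated calcium channels were called in 0 of 7 tested cases under saline and 0 of 5 under Ang II, among them *Cacna2d1* and *Cacnb3*, with Ang II differences of -0.38 and 0.15. Inward-rectifier channels and their sulfonylurea receptors were called in 0 of 4 and 0 of 3 tested cases. Their most abundant members, *Kcnj8* and *Abcc9*, which form a channel of vascular smooth muscle, had Ang II differences of -0.54 and -0.89 (limma adjusted p = 0.0464 and 0.0304) that did not exceed 1 in size. Smooth muscle markers summed to between 5723 and 17651 FPKM in Ang II-treated WT and between 2434 and 17578 FPKM in Ang II-treated Plod1-/- mice. Of the 12, 11 had estimates below 0 under Ang II and 2, *Smtn* and *Lmod1*, were called lower. Over all genes tested, 40.0% were below 0 and 3.67% were called lower. The part of the smooth muscle markers in the channel values was not tested.

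The genes for the adhesion and membrane proteins overlapped between the genotypes under Ang II. *Nfasc* (ENSMUSG00000026442, chromosome 1, 132564690 to 132741797) ran from 0.523 to 0.781 FPKM in saline-treated WT and from 2.0 to 3.68 FPKM in saline-treated Plod1-/- mice. Under Ang II it was 1.56, 0.737, 1.22, 1.78 and 0.933 FPKM in WT and 0.805, 0.574, 0.826, 1.56 and 2.56 FPKM in Plod1-/- mice. The genotypes overlapped over most of their range, with a difference of -0.03 (SE 0.23, 95% interval from -0.53 to 0.47, limma adjusted p = 0.919). *Gpm6a* (ENSMUSG00000031517, chromosome 8, 54954843 to 55060871) ran from 0.613 to 0.958 FPKM and from 1.94 to 2.66 FPKM under saline. With Ang II it ran from 1.00 to 1.88 FPKM in WT and from 0.422 to 1.51 FPKM in Plod1-/- mice, a difference of -0.18 (95% interval from -0.56 to 0.20, limma adjusted p = 0.441). *Gprc5c* (ENSMUSG00000051043, chromosome 11, 114851152 to 114872617) ran from 0.560 to 0.963 FPKM and from 1.73 to 3.32 FPKM under saline. The Ang II-treated mice ran from 0.977 to 2.13 FPKM and from 0.848 to 1.61 FPKM, a difference of -0.16 (95% interval from -0.48 to 0.17, limma adjusted p = 0.448).

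Partners and relatives of these membrane proteins were called under Ang II in 2 of 7 tested neurofascin partners, 1 of 2 tested proteolipid relatives and 3 of 11 tested Gprc5 and retinoic acid genes, against 11.1% of all genes tested. Of 13 listed partners of neurofascin and L1-family molecules, 6 were tested and 0 called under saline. Under Ang II, *Cntnap1*, an axonal partner at the node, was lower in Plod1-/- mice by -1.42 (SE 0.22, limma adjusted p = 0.00213), and *Chl1*, an adhesion molecule of the L1 family, was higher by 1.08 (SE 0.36, limma adjusted p = 0.0404). *Chl1* averaged 0.414 FPKM in Ang II-treated WT and 2.17 FPKM in Ang II-treated Plod1-/- mice, so the filter on low values favoured a difference in this direction. *Gpm6b*, the closest relative of *Gpm6a*, was at 1.24 ± 0.354 FPKM in Ang II-treated WT and 4.20 ± 2.29 FPKM in Plod1-/- mice under Ang II (SD, n = 5), a difference of 1.10 (limma adjusted p = 0.0197) in the direction opposite to the *Gpm6a* estimate. Schwann cell markers (11 genes) summed to between 75.3 and 114 FPKM over the saline-treated mice and to between 68.3 and 139 FPKM over the Ang II-treated mice. Of them 0 were called under saline, and 1 of 8 tested, *S100b*, was called lower under Ang II, against 3.67% of all genes tested. Among the relatives of *Gprc5c* and the retinoic acid genes, *Gprc5a* was called lower in saline-treated Plod1-/- mice, from 10.6 ± 4.56 to 3.38 ± 1.74 FPKM (SD, n = 5), as was *Aldh1a3*, a retinaldehyde dehydrogenase. Under Ang II, 3 of 11 tested were called higher in Plod1-/- mice, *Rara*, *Aldh1a2* and *Crabp2*, with differences of 1.06, 1.77 and 1.95, and 0 lower. *Crabp2* averaged 0.536 FPKM in Ang II-treated WT and 5.33 FPKM in Ang II-treated Plod1-/- mice, so the filter favoured its call as well.

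Set against saline within each genotype, all 9 estimates under Ang II were above 0 in WT mice and all 9 were below 0 in Plod1-/- mice. These contrasts share the saline-treated mice on which the genes were chosen, so they are a description without a test, and the choice itself favours these directions. In WT mice the differences ran from 0.03 for *Kcnj12* to 1.58 for *Serinc2*, with a median of 0.45, and 6 of the 9 genes had all Ang II-treated mice above all saline-treated mice. The mean FPKM of *Serinc2* was 7.20-fold, that of *Slc22a3* 3.53-fold and that of *Sphkap* 2.56-fold higher under Ang II. In Plod1-/- mice the differences ran from -1.94 for *Sphkap* to -0.04 for *Prune2*, with a median of -0.83, and the groups did not overlap in 5 genes, with all Ang II-treated mice at the bottom. *Sphkap* was 14.5-fold, *Kcnj12* 3.93-fold and *Cacna1h* 3.03-fold lower in mean FPKM under Ang II. Over all genes tested, all Ang II-treated mice were on top in 10.4% in WT mice and at the bottom in 15% in Plod1-/- mice. In the WT comparison only 4 of the 9 genes passed the filter on low values, against 9 of 9 in Plod1-/- mice. *Cacna1h* and *Gprc5c*, among the 6 without overlap in WT mice, were below the filter and so outside of the genes behind the 10.4%.

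**Figure D3:**
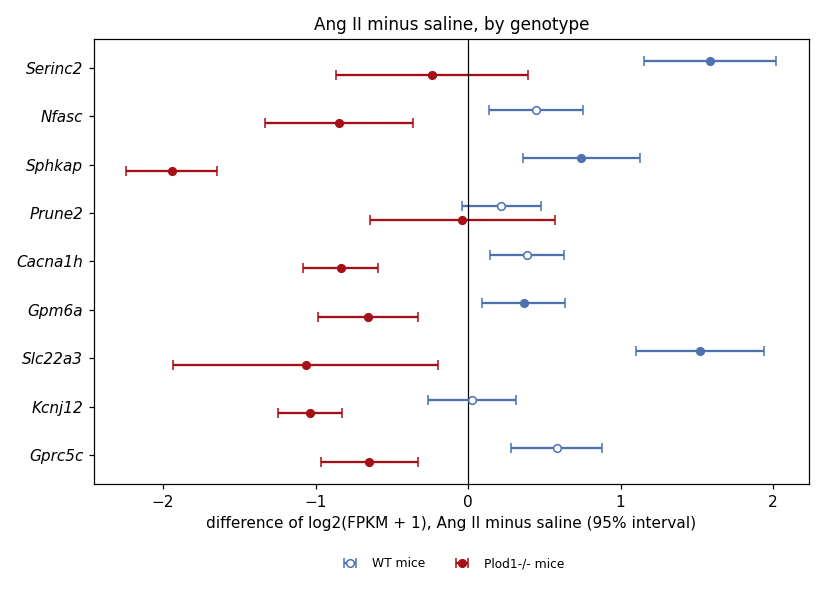
Difference in log2(FPKM + 1) between Ang II-treated and saline-treated mice (horizontal axis) for each gene in WT and in Plod1-/- mice, with 95% intervals from limma (n = 5 against 5) and open points for genes below the filter. The WT estimates run from 0.03 to 1.58 and the Plod1-/- estimates from -1.94 to -0.04.

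Mean FPKM was highest in saline-treated Plod1-/- mice in 8 of the 9 genes, the exception being *Prune2*, and lowest in saline-treated WT mice in 7, the exceptions being *Sphkap* and *Kcnj12*, which were lowest in Ang II-treated Plod1-/- mice. Ang II-treated WT mice had means between those of the saline-treated genotypes in all 9 genes. In *Sphkap*, *Cacna1h*, *Gpm6a* and *Gprc5c*, all Ang II-treated mice were above all saline-treated mice in WT and below all of them in Plod1-/- mice, a pattern held by 0.234% of 13263 genes (31 genes). *Sphkap* also had every Plod1-/- mouse above every WT mouse under saline and below under Ang II, as did 0.55% of those genes (73 genes). All 9 genes met the saline part of this crossing by the choice, as did 506 of 11999 genes tested under saline. The choice also favours the opposite responses to Ang II. The shares of 0.55% and 0.234% are over all genes, so they do not show how unusual these patterns are among genes chosen in this way. The change of the Plod1-/- difference from saline to Ang II, the interaction of genotype and treatment over the 20 mice, is given as a description. It ran from -2.68 (95% interval from -3.16 to -2.21) for *Sphkap* and -2.58 for *Slc22a3* to -0.26 (95% interval from -0.90 to 0.39) for *Prune2*. It contains the saline difference that chose the genes, which favours values below 0.

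Genes of endoplasmic reticulum stress and of the immediate early response also differed between the groups. The 10 endoplasmic reticulum folding genes, among them *Hspa5*, summed to between 598 and 1004 FPKM in saline-treated WT mice and between 364 and 440 FPKM in saline-treated Plod1-/- mice. Under Ang II they summed to between 351 and 558 FPKM in WT and between 625 and 968 FPKM in Plod1-/- mice. The genotypes thus did not overlap under either treatment, with WT mice on top under saline and Plod1-/- mice on top under Ang II. Under saline all 10 estimates were below 0, as were 51.0% of all genes tested, and 3 were called lower. Under Ang II 9 were above 0 and 2 called higher, against 60.0% and 7.45% of all genes tested. The 10 immediate early genes, including *Egr1* and *Fos*, which respond within minutes to handling and injury, summed to between 441 and 2360 FPKM in WT and between 166 and 1162 FPKM in Plod1-/- mice under saline. With Ang II the sums were 105 to 159 FPKM in WT and 458 to 1374 FPKM in Plod1-/- mice. Under saline 2 were called lower in Plod1-/- mice, and under Ang II 9 were called higher (7.45% of all genes tested). The share of all genes called lower under saline is not given here, so the saline counts of both lists lack a background. The part of the folding and immediate early genes in the values of the 9 was not tested.

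**Figure D4:**
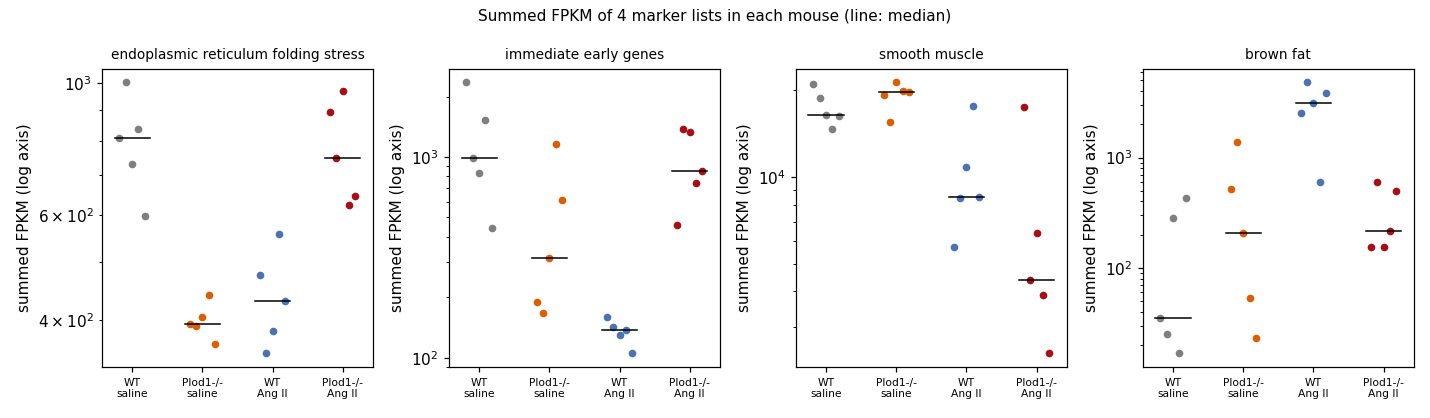
Summed FPKM (log axes) of 4 lists of marker genes in each of the 20 mice by group, with lines for medians. The folding genes sum to 364 to 440 FPKM in saline-treated Plod1-/- mice and 598 to 1004 FPKM in saline-treated WT mice, with the opposite order under Ang II.

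Cell type markers also differed between the groups. Brown fat markers (6 genes) summed to between 601 and 4819 FPKM in Ang II-treated WT mice and to no more than 1386 FPKM in any mouse of the other groups, and 5 were called lower in Ang II-treated Plod1-/- mice. White fat markers (6 genes) summed to between 49.7 and 556 FPKM over the saline-treated and between 563 and 4762 FPKM over the Ang II-treated mice. Skeletal muscle markers (6 genes) summed to between 19.5 and 306 FPKM in Ang II-treated WT and to between 3.88 and 12.5 FPKM in Ang II-treated Plod1-/- mice. Macrophage markers (6 genes) ran from 197 to 1223 FPKM in Ang II-treated WT and from 587 to 3601 FPKM in Ang II-treated Plod1-/- mice, with 5 called higher, and the highest sum of the 6 blood genes was 9717 FPKM, in a mouse of the latter group. The neuron and sympathetic nerve markers did not overlap between the genotypes under saline, with sums of 55.5 to 77.0 FPKM in WT and 82.3 to 152 FPKM in Plod1-/- mice. Of these markers, 5 of 6 tested were called higher in Ang II-treated Plod1-/- mice. Under saline, 0 of the smooth muscle, endothelial, macrophage, Schwann cell, fat and blood markers were called, while *Pi16*, a fibroblast marker, was called lower and *Npy*, a neuropeptide of sympathetic nerves, higher in Plod1-/- mice. The lists were not level, however. White and brown fat markers had median saline differences of 1.01 and 0.98, with 5 of 5 tested above 0 in each. The medians were -0.61 for endothelial, -0.26 for macrophage and -0.84 for blood markers, and -0.01 over all genes tested. The fibroblast markers (8 genes) had a median difference of -0.54 under saline. Under Ang II they summed to between 582 and 1027 FPKM in WT and between 1083 and 5764 FPKM in Plod1-/- mice, with *Col1a1* and *Col3a1* called higher and *Pi16* called lower. The 8 fibroblast estimates under Ang II were split, with 4 above and 4 below 0. Their median was 0.18, against 0.12 over all genes tested, so the sums do not stand for the whole list. Of the neutrophil and blood markers, 3 of 4 and 5 of 5 tested were called higher in Ang II-treated Plod1-/- mice. Over all genes tested under Ang II, 7.45% were called higher and 3.67% lower, the background for each Ang II count of called markers in this paragraph. Of the markers in the lists with a sum given here, those at 0 in every mouse of a group were *Hsd3b1*, *Cyp11b1* or *Cyp11b2* of the adrenal cortex and *Umod* of the kidney. The part of these cells in the values of the 9 genes was not tested.

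The remaining genes called higher under saline gave a setting for these values. Of the 43, 37 were not among the 9, and 36 of them were tested under Ang II. Their median difference was 1.15 under saline and 0.14 under Ang II, with 20 estimates above and 16 below 0, and 4 were called higher and 0 lower. Among the 9, the medians were 1.10 and -0.18, with 2 estimates above and 7 below 0, 0 called higher and 1 called lower. Whether the 9 genes differ from the other 37 was not tested.

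Within groups, the genes did not vary as a single unit. Over 36 pairs of genes, the Pearson correlation of group-centred log2(FPKM + 1) over the 20 mice had a median of 0.09 and ran from -0.43 (*Sphkap* with *Gprc5c*) to 0.74 (*Serinc2* with *Prune2*, Spearman's rho 0.77), values given as a description because all points share the libraries. The coefficient of variation was larger in Ang II-treated than in saline-treated Plod1-/- mice in 8 of the 9 genes, with medians of 41.2% and 16.7%. It was highest for *Nfasc*, *Slc22a3* and *Prune2*, at 64.3%, 63.3% and 58.1% in Ang II-treated Plod1-/- mice. Among 13254 other genes, the 5 that followed the mean profile of the 9 most closely within groups were *B630019K06Rik*, *Ltbp2*, *Samd1*, *Csgalnact1* and *Cdkl2*, with Pearson correlations from 0.82 down to 0.76 and Spearman's rho between 0.63 and 0.77. They were picked as the highest, so no p-value is given.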

How the data were processed

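Whole abdominal aortas of 20 mice were processed for RNA sequencing with an Illumina TruSeq V2 kit, which does not mark strand. Reads free of ribosomal RNA were aligned by the authors with HISAT2, quantified with stringtie and cuffquant, and normalized between libraries with cuffnorm, and FPKM per Ensembl gene were deposited. The submitters' processing notes name HISAT2 2.1.0, Bowtie2 2.2.3, HTSeq 0.6.0 and the build mm10. The annotation release is not given in the sources used here. Symbols and positions came from GENCODE vM21 (GRCm38), which holds 43285 of the 43422 genes. The files hold no counts, so the depth is unknown and edgeR, which the authors name, was not run.

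FPKM were transformed to log2(FPKM + 1) and fitted with limma 3.58.1 (R 4.3.3, eBayes with a variance trend) on the 10 mice of a comparison. Genes entered a fit if 5 or more of these mice had 1 FPKM or more. A call needed a Benjamini-Hochberg adjusted p below 0.05 over all genes tested and a difference above 1 in size, two-sided, and the added 1 understates changes of low genes. Exact permutation tests used all 252 splits of 5 against 5 mice. The fit was tested on simulated data. Alternatives were a pseudocount of 0.1, no filter, quantile normalization, mitochondrial genes left out, weights per mouse, no variance trend, all groups in 1 fit, the adjusted p alone, a replicate block, and mice left out.

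The 9 genes, the gene lists and the alternatives were chosen with earlier results of these data known. Genes named by rule were the 9, *Plod1*, the pathway list members called under Ang II (where there were none, the 2 most abundant) and the 5 genes most like the 9. *Xist*, *Tpsg1*, *Gprc5a*, *Aldh1a3* and single markers were named after their values were seen. Groups and replicate numbers came from the sample titles. The study's methods describe littermates but no pairing, and the p-values set a difference of group means against the spread between mice. The counts of the list of organic cation and monoamine genes are not reported here.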

Additional observations from a re-analysis of the deposited data

Results flagged for a closer look

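In *Gprc5c*, replicate 3 of the Ang II-treated Plod1-/- mice stood apart from its group at 0.848 FPKM, with the next mouse at 1.42 FPKM. Such a gap was looked for in 36 groups of 5 mice, and chance alone gives it in about 1 in 20 groups.

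In 4 genes the groups moved in opposite directions, and these differences were not tested, because the saline-treated mice chose the genes. *Sphkap* was higher in every Plod1-/- than in every WT mouse under saline and lower in every one under Ang II, and its Plod1-/- difference changed by -2.68 on the log2 scale. In *Sphkap*, *Cacna1h*, *Gpm6a* and *Gprc5c*, every Ang II-treated mouse was above every saline-treated mouse in WT and below every one in Plod1-/- mice. The change of the Plod1-/- difference was -1.22 for *Cacna1h*, -1.02 for *Gpm6a* and -1.23 for *Gprc5c*.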

How the results depend on the processing

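*Sphkap* was called lower in Ang II-treated Plod1-/- mice in all 20 alternatives. Under Ang II, leaving out the libraries with *Xist* RNA and leaving out replicate 1 of the Plod1-/- mice are the same fit, so these alternatives are not independent of each other. The number of the 9 genes called higher under Ang II was 0, and it was 1, *Prune2*, with a pseudocount of 0.1, with weights per mouse, with the adjusted p alone and without the libraries with *Xist* RNA. Leaving out 1 mouse gave between 0 and 1, the 1 being *Prune2* without replicate 1 or replicate 2 of the Ang II-treated Plod1-/- mice. With the replicate block 0 were called higher and 1 lower, so the block changed no call, and the adjusted p of *Prune2* was 0.0587 (limma). Replicates with the same number share no stated origin, and the correlation of their deviations under Ang II ran from -0.33 to 0.25. The *Serinc2* difference under Ang II was -0.017 with quantile normalization. That of *Nfasc* was 0.25 with weights per mouse, 0.032 without the libraries with *Xist* RNA, and -0.21 to 0.081 when 1 mouse was left out (0.019 and 0.048 without replicates 1 and 4 of the WT mice, 0.032, 0.081 and 0.028 without replicates 1, 2 and 3 of the Plod1-/- mice). The change of the *Prune2* difference from saline to Ang II was 0.17 with weights per mouse. The cause was not tested. The saline differences of all 9 genes stayed above 0 in every alternative run. These same mice chose the genes and the genotypes did not overlap in them, so this outcome was fixed by the choice. Levels near or below 1 FPKM with unknown depth limit every gene but *Slc22a3*, and most of all *Sphkap*, at no more than 0.421 FPKM in Ang II-treated Plod1-/- mice.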
